A study of Mus musculus with 6 samples.

Results

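The genes described here handle fatty acids on their way into a cell, and 8 of them were followed: Slc27a1, Slc27a4, Fabp4, Fabp5, Lpl, Plin2, Pparg and Ppard. They were taken by symbol from the 57180 genes of the deposited table, and all 8 were among the 14761 genes with enough counts to be tested. RNA was sequenced from CD36+ NK and CD36- NK cells, 3 libraries of each, sorted by flow cytometry from the livers of mice with fibrosis. Both groups came from male C57BL/6J mice, 6 to 8 weeks old, which all received CCl4, a liver toxin, at 2.5 ml/kg of a 20% solution in olive oil 2 times per week for 4 weeks, and livers were taken 48 hours after the last injection. NK cells were gated as CD3- NK1.1+ and split by surface CD36, a scavenger receptor that binds long-chain fatty acids. There was no library from mice without CCl4, and neither the labels nor the methods say whether a library held 1 mouse or several, so the p-values measure the spread between these libraries only.

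Fatty acids reach cells either bound to albumin or inside lipoproteins, from which lipoprotein lipase (Lpl) releases them. Cd36 and the transport proteins of the Slc27a family carry them into the cell, where the Fabp proteins bind and ferry them and where any excess is esterified into lipid droplets coated by perilipins such as Plin2. The peroxisome proliferator-activated receptors (PPARs) are nuclear receptors that bind fatty acids and pair with a retinoid X receptor (RXR) on DNA. Fabp4, Lpl, Plin2 and Cd36 are textbook PPAR targets, Pparg is best known from adipocytes and macrophages, and Ppard is expressed in most tissues. In the table, all 8 genes carried the KEGG term PPAR signaling pathway.

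A PPAR and its RXR partner bind repeats of the half-site AGGTCA, so the promoters of the 8 genes were read for it. Promoter windows of 250 bases before the start site came from RefSeq on GRCm38.p6, which is not the source of the gene coordinates given further on. Windows were found for 5 genes (Slc27a1, Slc27a4, Plin2, Pparg and Ppard), with 9 start sites between them. AGGTCA, searched on both strands, was in 3 of the 9 windows and in 14.0% of all 32851 windows. The 3 windows, 1 of Plin2 and 2 of Pparg, are shown because they hold the half-site, on the strand of the gene and with the half-site in capitals. The other Pparg window and those of Slc27a1, Slc27a4 and Ppard did not hold it. In the Plin2 window it lay on the opposite strand, and so reads TGACCT, 218 bases before the start site. In the Pparg windows its first base lay 28 and 9 bases before the start.
Plin2, chr4:86670060-86670309, minus strand: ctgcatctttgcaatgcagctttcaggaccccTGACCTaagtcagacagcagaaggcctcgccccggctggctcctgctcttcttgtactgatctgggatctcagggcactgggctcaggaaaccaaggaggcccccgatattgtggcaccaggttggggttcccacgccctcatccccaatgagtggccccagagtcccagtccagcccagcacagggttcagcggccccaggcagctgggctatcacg
Pparg, chr6:115360894-115361143, plus strand: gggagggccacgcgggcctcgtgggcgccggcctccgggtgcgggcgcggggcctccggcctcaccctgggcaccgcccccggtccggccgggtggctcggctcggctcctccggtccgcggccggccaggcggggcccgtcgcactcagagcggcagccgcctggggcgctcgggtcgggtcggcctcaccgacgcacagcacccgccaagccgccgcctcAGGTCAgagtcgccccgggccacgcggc
Pparg, chr6:115362099-115362348, plus strand: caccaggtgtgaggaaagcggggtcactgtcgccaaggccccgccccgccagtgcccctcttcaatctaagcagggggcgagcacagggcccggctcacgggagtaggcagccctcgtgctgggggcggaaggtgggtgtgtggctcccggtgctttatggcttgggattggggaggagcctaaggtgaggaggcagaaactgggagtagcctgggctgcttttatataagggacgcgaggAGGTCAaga
The direct repeat that PPARs prefer, 2 such half-sites in a row with 1 base between, searched on both strands, was in 0 of the 9 windows and in 0.0335% of all windows. A match describes the letters of the window and does not show that a receptor binds there. Only exact copies within these windows were searched, so the lack of a match does not show that no receptor binds.

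The libraries held between 10292480 and 13787189 counts. Cd36 itself was higher in every CD36+ NK library, at 110, 263 and 238 CPM (counts scaled to a common library total, with edgeR's TMM factors) in replicates 1, 2 and 3, against 14.3, 31.7 and 17.1 CPM in CD36- NK. The names of the sequencing libraries do not give the CD36 sign clearly, since those of the samples titled CD36+ have 2 hyphens after CD36 and those titled CD36- have 1, and the titles were followed. A gene was called a differentially expressed gene (DEG) when its fold change exceeded 2 and its Benjamini-Hochberg adjusted p in edgeR's quasi-likelihood test over all tested genes was below 0.05. By this rule 880 genes, or 5.96%, were DEGs, 440 of them higher in CD36+ NK (2.98%) and 440 lower. The cells also differed in marker genes of cell types. All 10 tested genes of a list of 12 macrophage and Kupffer cell markers had a higher level in CD36+ NK, 5 of them as DEGs, with a median log2 difference of 2.89. The other 2, Clec4f and Vsig4, were not tested. Most of their counts came from 1 library, CD36+ NK replicate 2, at 45.9 and 13.3 CPM. The summed level of the 12 genes was 2476, 3780 and 6061 CPM in CD36+ NK and 612, 1486 and 397 CPM in CD36- NK. All 10 genes of an NK cell list were DEGs lower in CD36+ NK, with a median log2 difference of -2.45 and summed levels of 851 to 1031 against 4485 to 5620 CPM. In a bulk sample, fewer cells of a type and less RNA per cell cannot be told apart.

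Of the 8 genes, Fabp4, Plin2 and Pparg were DEGs higher in CD36+ NK, 0 were DEGs lower, and 5 (Slc27a1, Slc27a4, Fabp5, Lpl and Ppard) did not pass. The median log2 fold change of the 8 was 0.96, against 0.01 over all tested genes. Log2 fold changes were positive for 6 genes and negative for Slc27a4 and Ppard, with unadjusted p-values of 0.267 and 0.125 in edgeR. DESeq2 also called 0 of the 8 lower. In 5 genes (Fabp4, Fabp5, Lpl, Plin2 and Pparg) every CD36+ NK library lay above every CD36- NK library, a pattern that 17.0% of all tested genes showed. The calls were lost in some smaller fits. Without CD36+ NK replicate 2, or without CD36- NK replicate 1, 0 of the 8 passed in edgeR, and DEGs among all genes fell in number from 880 to 418 (120 higher and 298 lower in CD36+ NK) and to 417 (94 higher and 323 lower). In each of these fits 5 of the 8 had an unadjusted p below 0.05, and the log2 fold changes of Fabp4, Plin2 and Pparg stayed close to those with all libraries. With all libraries, DESeq2 called 4 of the 8, the same 3 and Lpl.

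**Figure D1:**
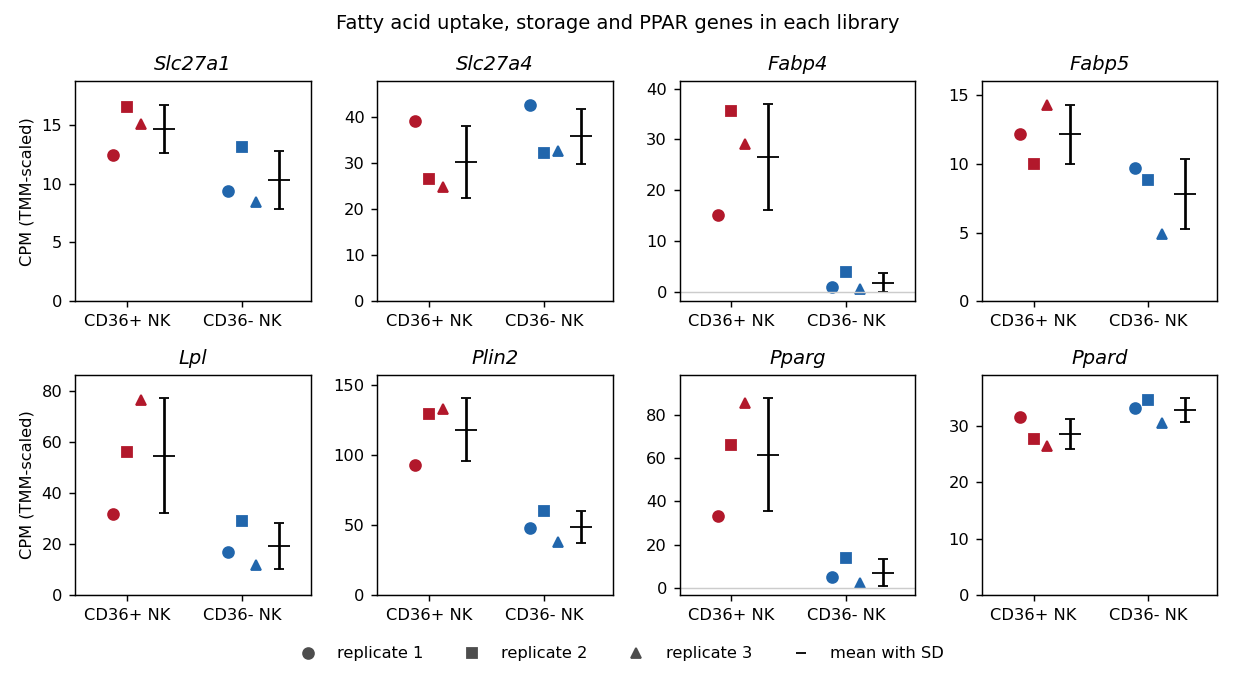
TMM-scaled CPM of each of the 8 genes in the 6 libraries (red, CD36+ NK; blue, CD36- NK; the symbol gives the replicate number), with the mean and SD of each group beside the points. Fabp4 and Pparg are low in all CD36- NK libraries, Plin2 and Lpl are higher in CD36+ NK without overlap, and the groups overlap for Slc27a1, Slc27a4 and Ppard.

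Neither of the transport proteins was a DEG. Slc27a1 (FATP1, ENSMUSG00000031808, chr8:72021526-72039946, plus strand) and Slc27a4 (FATP4, ENSMUSG00000059316, chr2:29692646-29707534, plus strand) are membrane-associated proteins that promote uptake of long-chain fatty acids and activate them with coenzyme A. Slc27a1 had 140, 224 and 181 counts in CD36+ NK replicates 1, 2 and 3 and 122, 148 and 86 counts in CD36- NK. This came to 12.5, 16.5 and 15.0 CPM against 9.38, 13.1 and 8.40 CPM. The groups overlapped, since CD36- NK replicate 2 lay above CD36+ NK replicate 1. Its log2 fold change was 0.51 (SE 0.21, 95% interval 0.02 to 1.00), with an adjusted p of 0.171 in edgeR.

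Slc27a4 had 441, 361 and 299 counts in CD36+ NK and 556, 364 and 334 counts in CD36- NK, or 39.3, 26.6 and 24.9 against 42.7, 32.2 and 32.6 CPM. Replicate 1 was the highest library of both groups, and the groups overlapped. The log2 fold change was -0.25 (SE 0.21, 95% interval -0.74 to 0.24) with an adjusted p of 0.513 in edgeR, so a rise or fall of 2 times lay outside the interval. Slc27a4 was above Slc27a1 in every library in FPKM (fragments scaled to library size and to the length behind the deposited values). The ratio of Slc27a1 to Slc27a4 in FPKM was 0.126, 0.247 and 0.241 in CD36+ NK and 0.0874, 0.162 and 0.103 in CD36- NK. The lengths were not checked against the transcripts. A wrong length would shift such a ratio alike in all libraries, and so would leave its difference between the groups unchanged.

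Of the binding proteins, both encoded on chromosome 3, Fabp4 was a DEG and Fabp5 was not. Fabp4 (ENSMUSG00000062515, chr3:10269148-10273636, minus strand), the fatty acid binding protein of adipocytes and macrophages, had 169, 483 and 350 counts in CD36+ NK and 12, 44 and 6 counts in CD36- NK. Its level was 15.0, 35.5 and 29.1 CPM in CD36+ NK (mean 26.6 ± 10.5, SD, n = 3) and 0.92, 3.89 and 0.59 CPM in CD36- NK (1.80 ± 1.82). The lowest CD36+ NK library still lay well above the highest CD36- NK library, and the gene passed the filter on low counts through its CD36+ NK libraries.

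The log2 fold change of Fabp4 was 3.88 (SE 0.64, 95% interval 2.37 to 5.39), the largest of the 8, or 14.7-fold, with an adjusted p of 0.0134 in edgeR. Without CD36- NK replicate 2, in which Fabp4 was highest of its group, the log2 fold change was 5.09. The adjusted p was 0.0536 without CD36+ NK replicate 2 and 0.0604 without CD36- NK replicate 1, so the call was lost in both, with log2 fold changes of 3.61 and 3.52.

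Fabp5 (ENSMUSG00000027533, chr3:10077608-10081667, plus strand), the epidermal form found in many cell types, had 137, 136 and 172 counts in CD36+ NK and 126, 100 and 50 counts in CD36- NK. Its level was 12.2, 10.01 and 14.3 CPM against 9.69, 8.84 and 4.88 CPM (12.2 ± 2.15 and 7.80 ± 2.56, SD, n = 3 each). The groups did not overlap, but CD36+ NK replicate 2 and CD36- NK replicate 1 were nearly level. Here the log2 fold change was 0.63 (SE 0.28, 95% interval -0.02 to 1.29), with an adjusted p of 0.202 in edgeR.

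In FPKM, the order of the 2 binding proteins was not the same in the 2 groups. The ratio of Fabp4 to Fabp5 in FPKM was 1.02, 2.93 and 1.68 in CD36+ NK and 0.0785, 0.363 and 0.0989 in CD36- NK. Fabp4 was thus level with Fabp5 in CD36+ NK replicate 1 and above it in replicates 2 and 3, and below it in every CD36- NK library. The lengths behind these FPKM are longer than the spans of both genes on the chromosome. Which of the 2 transcripts is more abundant is therefore uncertain, but the difference in ratio between the groups does not depend on the lengths. The mean log2 ratio was 0.77 ± 0.76 in CD36+ NK and -2.82 ± 1.19 in CD36- NK (SD, n = 3 each), and an exact two-sided permutation test gave p = 0.1, the smallest that 3 against 3 libraries allow. The pairs of genes compared as ratios (this one, the 2 transporters and the 2 PPARs below) were chosen after the values had been seen.

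Lpl (ENSMUSG00000015568, chr8:69333143-69360100, plus strand) encodes the secreted enzyme that splits triglycerides in lipoproteins. It had 356, 761 and 920 counts in CD36+ NK and 219, 329 and 121 counts in CD36- NK. Its level was 31.7, 56.0 and 76.5 CPM in CD36+ NK (54.7 ± 22.4, SD, n = 3) and 16.8, 29.1 and 11.8 CPM in CD36- NK (19.2 ± 8.89). The groups did not overlap, but the gap between CD36+ NK replicate 1 and CD36- NK replicate 2 was small beside the spread within each group.

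The log2 fold change of Lpl was 1.51 (SE 0.41, 95% interval 0.55 to 2.46), a larger value than that of Plin2, but the adjusted p was 0.0599 in edgeR and Lpl was not a DEG. Without either of the 2 libraries nearest to the other group it passed, with an adjusted p of 0.0284 without CD36+ NK replicate 1 and 0.0274 without CD36- NK replicate 2. Without any of the other 4 libraries it did not, with adjusted p-values in edgeR of 0.146 to 0.176. DESeq2 gave an adjusted p of 0.00122, and edgeR's exact test 0.00439.

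Plin2 (ENSMUSG00000028494, chr4:86566623-86588297, minus strand) coats lipid droplets in most cells that store fat. It was the best covered of the 8 genes, with 1042, 1754 and 1601 counts in CD36+ NK and 622, 680 and 385 counts in CD36- NK. Its level was 92.7, 129 and 133 CPM in CD36+ NK (118 ± 22.2, SD, n = 3) and 47.8, 60.1 and 37.6 CPM in CD36- NK (48.5 ± 11.3). Every CD36+ NK library lay above every CD36- NK library.

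The log2 fold change of Plin2 was 1.29 (SE 0.21, 95% interval 0.80 to 1.77), or 2.44-fold, with an adjusted p of 0.0117 in edgeR. The call was lost by a narrow margin without CD36+ NK replicate 2, at an adjusted p of 0.0518, and without CD36- NK replicate 1, at 0.0558, with log2 fold changes of 1.22 and 1.26.

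**Figure D2:**
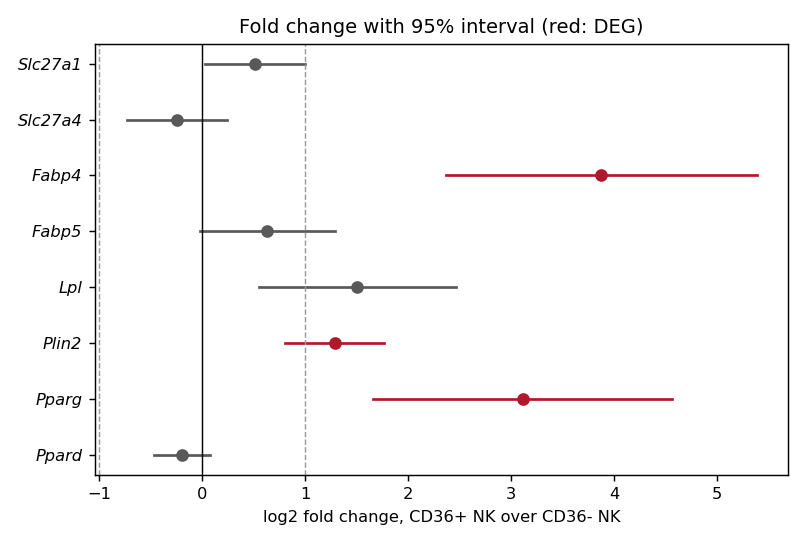
Log2 fold change of CD36+ NK over CD36- NK for each of the 8 genes (points) with its 95% interval (bars) from edgeR, with DEGs in red and dashed lines at a fold change of 2 in each direction. Fabp4 (3.88) and Pparg (3.11) have the largest values and also the widest intervals, while the intervals of Slc27a4, Fabp5 and Ppard span 0.

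Of the PPARs, Pparg was a DEG and Ppard was not. Pparg (ENSMUSG00000000440, chr6:115337912-115467360, plus strand) encodes PPARγ, the receptor that drives fat cell formation and is also active in tissue macrophages. It had 375, 901 and 1027 counts in CD36+ NK and 64, 158 and 25 counts in CD36- NK. Its level was 33.4, 66.3 and 85.4 CPM in CD36+ NK (61.7 ± 26.3, SD, n = 3) and 4.92, 14.0 and 2.44 CPM in CD36- NK (7.11 ± 6.07), with no overlap between the groups.

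The log2 fold change of Pparg was 3.11 (SE 0.62, 95% interval 1.66 to 4.57), or 8.65-fold, with an adjusted p of 0.0240 in edgeR. The libraries of each group spread widely, and the call was lost when any of 4 libraries was left out. In CD36+ NK, the adjusted p was 0.0782 without replicate 2 (log2 fold change 3.06) and 0.0811 without replicate 3 (2.81). In CD36- NK, it was 0.0961 without replicate 1 (2.88) and 0.0615 without replicate 3 (2.70). Without CD36- NK replicate 2, in which Pparg was highest of its group, the log2 fold change was 4.03.

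Ppard (ENSMUSG00000002250, chr17:28451674-28520448, plus strand) encodes PPARδ, the widely expressed form. It had 355, 375 and 318 counts in CD36+ NK and 431, 392 and 313 counts in CD36- NK, or 31.6, 27.6 and 26.4 against 33.1, 34.7 and 30.6 CPM. The groups overlapped in a narrow range. Its log2 fold change was -0.20 (SE 0.12, 95% interval -0.47 to 0.07) with an adjusted p of 0.331 in edgeR, so the interval left out a change of 2 times in either direction.

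Ppara, the third PPAR and the main one of hepatocytes, had 1 count over the 6 libraries and was not tested. A count of 0 allows a level of up to 0.221 to 0.293 CPM, depending on the library (3 counts, counting error only).

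The ratio of Pparg to Ppard in FPKM was 2.87, 6.53 and 8.77 in CD36+ NK and 0.403, 1.09 and 0.217 in CD36- NK. In FPKM, Pparg was therefore above Ppard in every CD36+ NK library, about level with it in CD36- NK replicate 2 and below it in the other CD36- NK libraries. These ranks depend on the lengths behind the FPKM, whereas the difference in ratio between the groups does not. The mean log2 ratio was 2.45 ± 0.84 against -1.13 ± 1.18 (SD, n = 3 each), and the exact two-sided permutation test again gave p = 0.1, the smallest value possible. For the 2 transporters the same exact permutation test gave p = 0.2, with a difference in mean log2 ratio of 0.79. Adjusted over these 3 ratios by Benjamini-Hochberg, the exact permutation p-values were 0.15, 0.15 and 0.2.

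**Figure D3:**
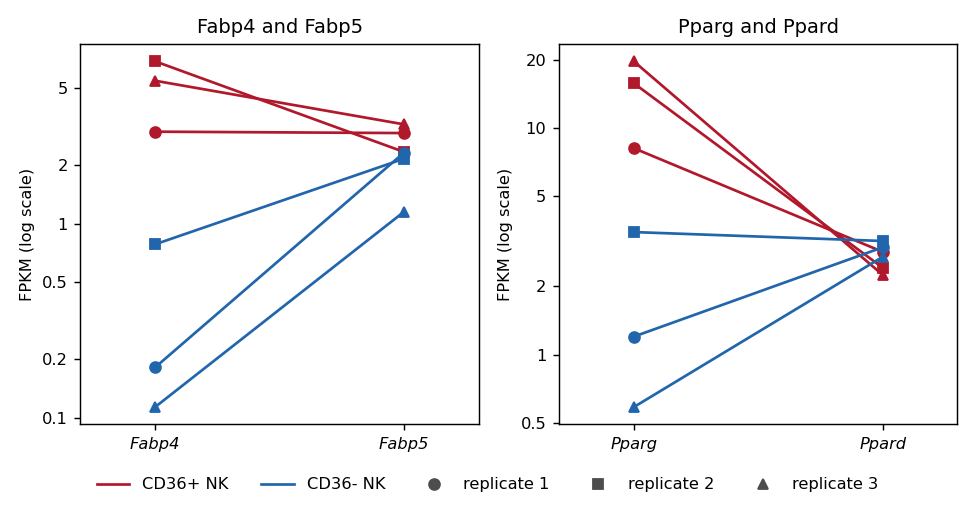
FPKM on a log scale of Fabp4 and Fabp5 (left) and of Pparg and Ppard (right), with 1 line per library (red, CD36+ NK; blue, CD36- NK). The red lines run level or fall from left to right and the blue lines rise or, for Pparg and Ppard in CD36- NK replicate 2, stay about level.

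In FPKM, Plin2 was the highest of the 8 genes in CD36+ NK, at 22.2 ± 3.68 FPKM (SD, n = 3). Pparg followed at 14.5 ± 5.87 FPKM and Slc27a4 at 6.48 ± 1.86 FPKM. The orders given here depend on the lengths behind the deposited FPKM, which were not checked against the transcripts. Fabp4 (5.08 ± 1.96 FPKM), Lpl (4.60 ± 1.77), Fabp5 (2.83 ± 0.46) and Ppard (2.499 ± 0.31) came next and Slc27a1 (1.24 ± 0.16) last. Neighbours in this order overlapped by mean ± SD, except Pparg with Slc27a4 and Ppard with Slc27a1. Slc27a4 was nevertheless above Pparg in replicate 1 (8.61 against 8.14 FPKM), and it was above Fabp4 in that replicate alone. In CD36- NK the order began with Plin2 at 9.40 ± 2.35 and Slc27a4 at 7.86 ± 1.303 FPKM, which overlapped. Ppard followed at 2.95 ± 0.24 FPKM and overlapped with neither of its neighbours. Then came Fabp5 (1.87 ± 0.63 FPKM), Pparg (1.75 ± 1.52), Lpl (1.69 ± 0.81), Slc27a1 (0.90 ± 0.23) and Fabp4 (0.36 ± 0.37), each overlapping with the next.

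The levels were also set beside the summed level of the 12 macrophage and Kupffer cell genes in each library, of which Csf1r, the receptor for the growth factor that keeps macrophages alive, and C1qb, a chain of complement C1q, were the most abundant. In CD36- NK, replicate 2 had the highest sum and replicate 3 the lowest, and 6 of the 8 genes (all but Fabp5 and Slc27a4) ranked the libraries in the same way, as did 18.2% of all tested genes. In CD36+ NK, replicate 3 had the highest sum and replicate 1 the lowest, and 3 of the 8 (Lpl, Plin2 and Pparg) had this order, against 22.3% of all tested genes. These 3 had the order of the sum in both groups, as did 6.18% of all tested genes. Fabp4 and Slc27a1 were also lowest in CD36+ NK replicate 1 but highest in replicate 2. The part of the macrophage sum in the differences was not tested.

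**Figure D4:**
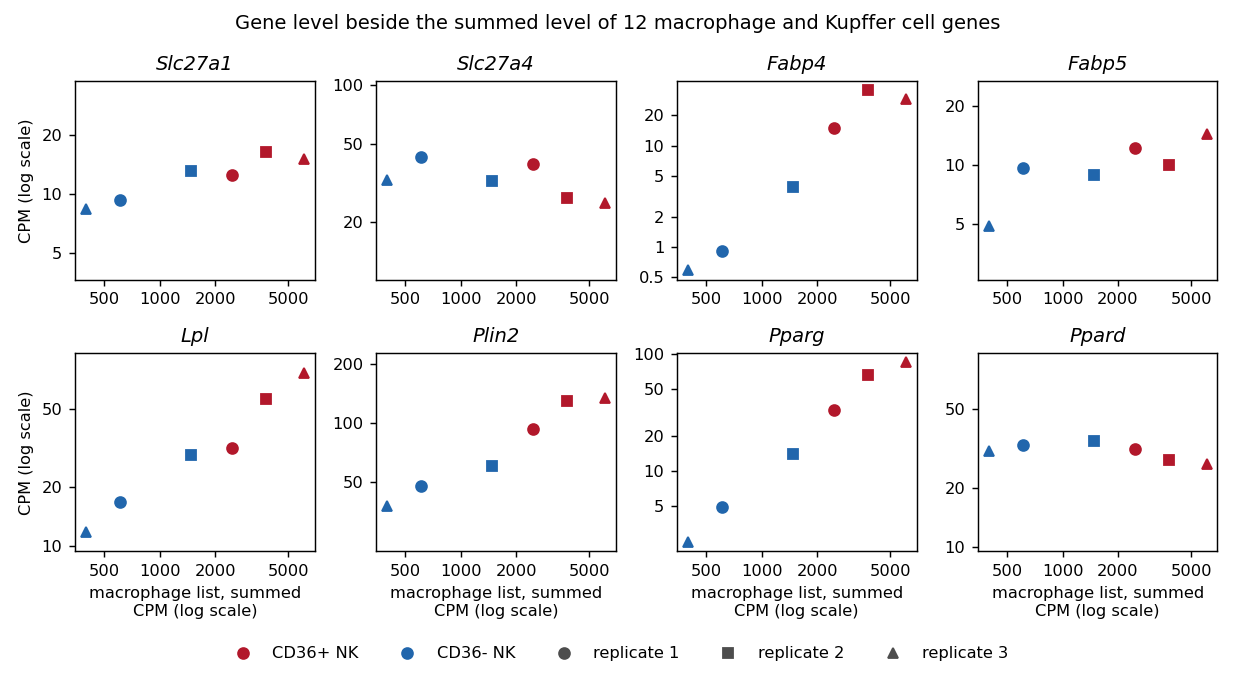
TMM-scaled CPM of each of the 8 genes against the summed CPM of the 12 macrophage and Kupffer cell genes, both on log scales, with 1 point per library (red, CD36+ NK; blue, CD36- NK). The points of Fabp4, Lpl, Plin2 and Pparg rise from the blue libraries with the lowest sums to the red ones, whereas those of Slc27a4 and Ppard do not rise.

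Markers of other cells that use these genes were examined in the same way. Of 6 adipocyte genes, none had enough counts to be tested, Plin1, Lep and Cfd were at 0 in all libraries, and the sum was at most 0.589 CPM in any CD36+ NK library and 0.154 CPM in any CD36- NK library. Liver sinusoidal endothelial genes summed to 94.6 to 193 CPM in CD36+ NK and 20.6 to 51.6 CPM in CD36- NK, with 1 DEG of 4 tested. Most of this was Dnase1l3 (74.4 against 21.98 CPM) and Stab2 (53.3 against 7.72 CPM). Capillary endothelial genes summed to 207 to 229 against 160 to 178 CPM, but nearly all of this was Pecam1, which leukocytes also express (197 against 151 CPM). Rgcc, the next most abundant, was at 16.2 against 18.8 CPM. Of the 4 capillary genes tested, 3 were higher in CD36+ NK and 1 lower, with a median log2 fold change of 0.47 and 0 DEGs. Hepatocyte genes were at 1.58 to 10.8 against 0.0884 to 0.692 CPM, and none could be tested. Hepatic stellate cell genes, with Lrat at 0 throughout, were at 6.77 to 8.46 against 2.44 to 5.61 CPM. Sums were also higher without overlap for B cell (4387 to 4880 against 2965 to 3387 CPM), erythroid (257 to 573 against 56.6 to 125) and dendritic cell genes (211 to 314 against 140 to 204). They overlapped for monocyte (4016 to 5384 against 2968 to 6233 CPM), neutrophil (507 to 2715 against 865 to 2144), T cell (28.2 to 239 against 61.5 to 144) and platelet genes (14.5 to 26.7 against 17.2 to 19.3). Single markers were nevertheless DEGs higher in CD36+ NK in 5 of these lists: 3 of 6 erythroid, 2 of 7 dendritic cell, 2 of 4 platelet, 1 of 2 stellate cell and 1 of 6 T cell genes tested. The monocyte list had 1 DEG of 8, which was lower. The part of these cell types in the 8 genes was not tested.

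The other genes of these pathways were counted in the same way. Over 5 lists of genes that act beside the 8, 82 of 121 genes were tested, 6 were DEGs higher and 2 were DEGs lower in CD36+ NK, and the median log2 fold change was 0.15. The DEGs made up 9.76% of the 82, beside 5.96% of all tested genes, and 1 of them was Cd36, by which the cells were sorted. Leaving out replicate 2 or 3 of CD36+ NK, or replicate 1 or 3 of CD36- NK, left 4 DEGs in each case.

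Among 22 other genes of fatty acid uptake, binding and activation, 12 were tested, with a median log2 fold change of 0.13. Cd36 was 1 DEG, at a log2 fold change of 3.27. The other was Slc27a6, a further member of the transporter family, which fell by 1.41 on the log2 scale (1.98 ± 0.61 against 5.28 ± 1.44 CPM, SD, n = 3 each, adjusted p = 0.0354 in edgeR). Fabp2, Fabp6 and Fabp12 were at 0 in all libraries.

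Of 16 partners of lipoprotein lipase and lipoprotein receptors, 10 were tested and 2 were DEGs, both higher in CD36+ NK, and the median log2 fold change was 0.57. Apoc2, the activating cofactor of Lpl, was at 43.4, 55.0 and 48.2 CPM in CD36+ NK and 11.99, 13.4 and 4.49 CPM in CD36- NK (log2 fold change 2.29, adjusted p = 0.0109). Sort1, a sorting receptor that binds Lpl, had a log2 fold change of 1.58 (adjusted p = 0.0313). Gpihbp1, which anchors Lpl to capillary endothelium, was at 0 in all libraries.

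The lipid droplet list showed no common direction, with 19 of 29 genes tested, 9 positive, 10 negative and a median log2 fold change of -0.06. Lipa, the lysosomal acid lipase that frees fatty acids from lipoprotein lipids, rose by 1.32 on the log2 scale (181 ± 51.7 against 72.8 ± 20.3 CPM, SD, n = 3 each, adjusted p = 0.0240 in edgeR). Lpin1, a phosphatidate phosphatase that makes the diglyceride used for triglyceride, fell by 1.599 (53.0 ± 3.57 against 161 ± 28.2 CPM, adjusted p = 0.00144 in edgeR). Plin1 and Cidea, droplet proteins of fat cells, were at 0 in all libraries.

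Among PPARs, RXR partners and coregulators, 19 of 21 genes were tested and the median log2 fold change was 0.09. The single DEG was Cebpb, a transcription factor that acts upstream of Pparg in fat cell formation, at 399, 574 and 504 CPM in CD36+ NK and 242, 211 and 159 CPM in CD36- NK (log2 fold change 1.27, adjusted p = 0.01005 in edgeR). Among 33 other PPAR target genes, 22 were tested, the median was 0.17, and only Gk, glycerol kinase, was a DEG (log2 fold change 1.17, adjusted p = 0.0321 in edgeR). The KEGG term PPAR signaling pathway without the 8 genes held 81 genes, of which 37 were tested. It had 3 DEGs higher (Cd36, Gk and Pltp, the phospholipid transfer protein, at a log2 fold change of 1.52) and Slc27a6 as the only DEG lower. The median over its tested genes was 0.20, with 23 positive and 14 negative values.

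**Figure D5:**
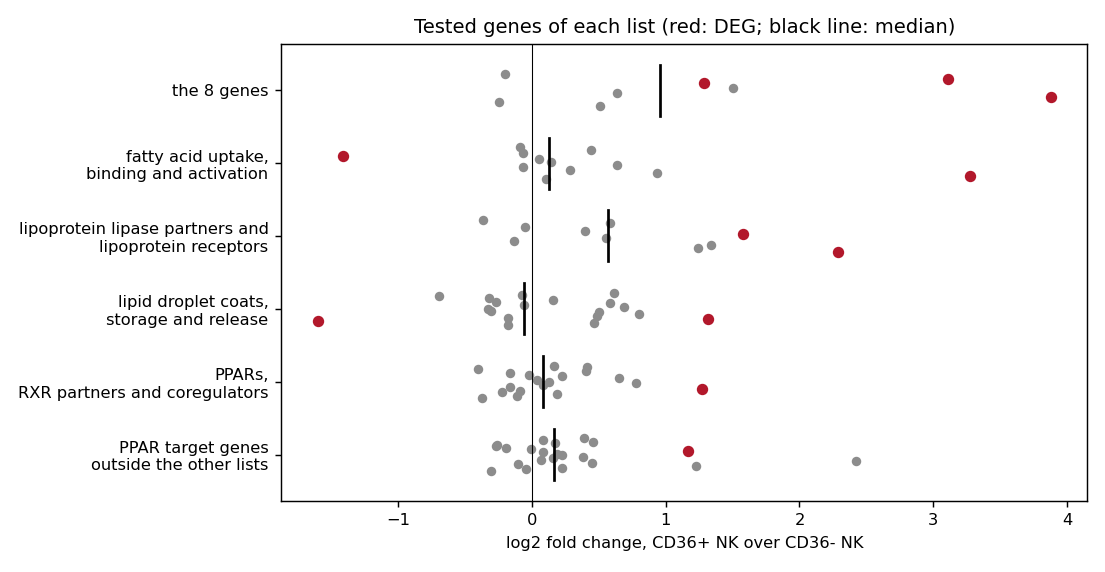
Log2 fold change of CD36+ NK over CD36- NK for every tested gene of the 8 and of the 5 lists beside them, with DEGs in red and a black line at the median of each row. The medians of the 5 lists lie between -0.06 and 0.57, against 0.96 for the 8 genes.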

How the data were processed

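RNA of CD36+ NK and CD36- NK cells, 3 libraries each, was sequenced from 400 ng of total RNA. The authors filtered reads with Seqtk, mapped them with HISAT2 2.0.4 (per the submitters' processing notes) and assigned fragments to genes with StringTie, and they deposited raw counts and FPKM. The deposited FPKM imply a length per gene that is equal in all libraries, within 1%, in 100.0% of the 7439 genes with over 200 counts in every library. These lengths were not checked against the transcripts. Those implied for Fabp4 and Fabp5 are longer than the spans of the 2 genes on the chromosome. Gene coordinates are those of the table, whose build is not named there. The submitters' notes list a rat assembly, although the gene identifiers are mouse. The broken lines of 2 genes were rejoined.

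Counts were filtered with filterByExpr (minimum count 10), scaled by TMM and compared by edgeR 4.0.16 (quasi-likelihood test, R 4.3.3), and p-values were adjusted over all 14761 genes. Standard errors were taken as |log2 fold change| over the square root of F. Levels are CPM, and FPKM where genes are compared with each other. Exact permutation tests used scipy 1.17.1. Within groups, chi-square per degree of freedom between replicates was 13.5 to 26.5, above sampling noise, and the biological coefficient of variation was 20.3%. The code was tested on simulated data.

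The 8 genes and all lists were chosen with earlier results of these data known. Named genes are the 8, Cd36, Ppara, in each pathway list and the KEGG term up to 3 DEGs per direction with the smallest p, the 2 genes of most similar profile to each of the 8, and the 2 most abundant genes and those at 0 of the marker lists. The 2 macrophage and Kupffer cell genes that were not tested are named as well. Alternatives tried were edgeR's exact test, DESeq2 1.42.0, other scalings and filters, blocks, no fold threshold, and leaving out libraries.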

Additional observations from a re-analysis of the deposited data

How the results depend on the processing

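No log2 fold change of the 8 genes reversed. Of 119 alternative values of these fold changes, 104 stayed on the same side of the threshold, 11 lost the call and 4, all of Lpl, gained it. The number of DEGs among the 8, which was 3, ran from 0 to 4 when 1 library was left out, and it was 0 in edgeR without both libraries of replicate 1 (5 had an unadjusted p below 0.05). The log2 fold changes were then 3.81 for Fabp4, 1.41 for Plin2 and 3.18 for Pparg. The names of the replicate 1 libraries have another form than those of the rest, and no source says why. With a block on this form, 3 of the 8 and 912 of all genes were DEGs. DEGs among all genes numbered 880, against 433 without both libraries of replicate 1, 417 to 1160 without 1 library, and 1552 with no fold threshold. For the genes of the 5 pathway lists, which had 8, the same settings gave 3, 4 to 11, and 12, and the cause was not tested.

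The replicate block left 3 of the 8 genes called, at an adjusted p of 0.0213 for Fabp4, 0.0330 for Plin2 and 0.0486 for Pparg, and gave 560 DEGs among all genes (221 higher, 339 lower) and 5 in the pathway lists. Same-numbered libraries did not all deviate together (correlations of 0.31, 0.05 and -0.08). The numbers are those of the sample titles, and the library names number replicates 2 and 3 of CD36- NK as 1 and 2. Pairs by library name were not examined, so the correlations do not settle whether libraries pair. No source says that same-numbered libraries share a mouse, so the numbers were not taken as pairs. With at least 10 counts required in every library, Fabp4 was not tested and 2 of the 7 genes left were called. Depth limits Fabp4 in CD36- NK, where 1 library held 6 counts, and Ppara.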

Other observations

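The genes whose profile over the 6 libraries lay nearest to that of each of the 8 were sought among 10009 genes with a mean of at least 10 CPM, by the root mean square difference of centred log2 CPM. For Pparg they were Tcf7l2, a transcription factor of the Wnt pathway (difference 0.17), and Fcgr4, an Fc receptor of myeloid cells (0.24). Fcgr4 was also the second nearest to Fabp4 (0.27), after Dnah12 (0.24). Fcgr4 was at 161 CPM in CD36+ NK and 15.8 CPM in CD36- NK on average. For Lpl the nearest were Slc8a1, a sodium-calcium exchanger (0.06), and Slc7a8, an amino acid transporter (0.11), and for Plin2 they were Ldlrad3 (0.07) and Cdh17 (0.09). For Slc27a1 they were Soat1, which esterifies cholesterol (0.03), and Wdr41 (0.03). For Fabp5 they were 5031439G07Rik and Acsl1, which activates long-chain fatty acids (0.10 each), for Slc27a4 Snrpd2 (0.07) and Chtf18 (0.08), and for Ppard Gm7353 and Rab6a (0.03 each). A small difference over 6 libraries of 2 groups describes these libraries and carries no test.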
